A study of Mus musculus with 10 samples.

Results

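Ly6a, Cd34, Cd24a, Thy1, Eng, Pparg, Cebpa, Cebpb, Lpl and Cd36 were followed in RNA from C2C12 cells, an established mouse myoblast line. These 10 genes, of 23460 listed in the deposited tables, were selected by symbol because they mark mesenchymal or stem-like cell surfaces or take part in adipogenesis. They were selected with their levels in these same tables in view, so the levels and ratios below describe the genes and test nothing. Huwe1 is a ubiquitin E3 ligase and USP10 a deubiquitinase, and the study compared cultures in which one or the other was altered during muscle differentiation.

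The sequenced material came from 10 libraries. Wildtype C2C12 cells and cells with either of 2 Huwe1 shRNAs were collected in growth medium on day 0 and after 6 days in differentiation medium. Myotubes labelled as carrying a non-targeting RNA and myotubes with either of 2 other Huwe1 shRNAs were collected on day 8, having been infected with lentivirus in the course of differentiation. A line carrying USP10 cDNA under the EF1a promoter was collected after 6 days in differentiation medium as 1 library. Each Huwe1 table thus set 1 control library against 1 column in which 2 knockdown libraries were pooled, and the USP10 table set 1 column against 1 control. The controls of day 0 and day 6 are labelled wildtype with no hairpin named, so an effect of virus or hairpin cannot be told apart from one of Huwe1 there. The day 8 control is labelled non-targeting RNA, but the header of its table calls it wild type, so the same limit may hold at day 8. The labels do not say whether the USP10 line was a single clone or a pool.

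C2C12 myoblasts leave the cell cycle in low serum and fuse into myotubes. Skeletal muscle also holds fibro-adipogenic progenitors, mesenchymal cells recognised by LY6A (also called SCA-1) and PDGFRA, which can become fibroblasts or adipocytes. In adipogenesis C/EBP beta is induced early and is followed by PPAR gamma and C/EBP alpha, which maintain each other and switch on genes of lipid uptake and storage such as Lpl and Cd36. LY6A, CD34, CD24, THY1 and endoglin are surface proteins used to sort progenitors, yet each of them is also found on other cells, LY6A on interferon-treated cells and CD24 and CD34 on muscle precursors.

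Expression was given in FPKM, fragments scaled to transcript length and to the mapped total of the library, with 1 value per condition. No value below therefore has a replicate error, and no difference was tested. A change is the log2 ratio of treated to control FPKM with 0.01 FPKM added to each, and genes with at least 1 FPKM in 1 of the columns were kept. A gene at least 2-fold higher or lower was counted as changed. By these rules 5 of the 10 genes were kept at day 0 and 8 in each of the other tables, since Thy1 and Eng stayed under 1 FPKM throughout, and Cd24a, Cebpa and Cd36 did so at day 0.

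The targeted gene was lower in each knockdown column. Huwe1 stood at 38.3 FPKM in the control against 15.2 FPKM after knockdown at day 0, at 35.1 and 21.9 FPKM at day 6, and at 55.4 and 33.0 FPKM at day 8. Usp10 stood at 10.3 FPKM in the control against 38.3 FPKM in the overexpressing line. It was also higher in the day 6 Huwe1 knockdown, with 13.2 and 35.4 FPKM, close to the level of that line, while it had 68.5 and 64.2 FPKM at day 0 and 14.5 and 13.1 FPKM at day 8. Libraries that filled a column alone were estimated at between 7.78e+06 and 2.99e+07 fragments. The shallowest was the control of the USP10 table, in which 1 FPKM stood for about 7.78 fragments per kilobase, against 27.6 in the USP10 library. The skeletal muscle markers, 12 genes from Myod1 to Tnnt3, summed to 14440 FPKM in the control against 3052 FPKM after knockdown at day 6, to 12030 and 3049 FPKM at day 8, and to 6696 and 3464 FPKM in the USP10 table. The differentiated controls thus expressed muscle markers at high levels, and the treated columns beside them had lower sums. The directions of Ly6a, Cd34 and Cd24a are set beside these sums. In both day 6 comparisons Ly6a and Cd34 were higher and Cd24a lower. At day 8 Ly6a was lower after knockdown (log2 ratio -1.69), and Cd34 (-0.4) and Cd24a (-0.41) stayed under 2-fold. The day 8 cultures also differed in procedure, and the part of the muscle markers in those changes was not tested. In bulk RNA, fewer cells of a type and less RNA per cell cannot be told apart.

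The control of day 6 was not the same in both tables. The USP10 table names in its header the same control as the day 6 Huwe1 table, yet the values differ, and after centring on the median gene 19.9% of 11459 genes were at least 2-fold apart between the columns (robust SD of the log2 ratio 0.63). The genes described here were among those that differed. Ly6a had 2.54 FPKM in one control and 31.3 FPKM in the other, and Cd34 had 1.59 and 27.8 FPKM. Cd24a went the other way, with 167 and 24.0 FPKM. Lpl had 9.44 and 27.4 FPKM, Cd36 3.11 and 6.71 FPKM, and Cebpa 1.99 and 3.98 FPKM. For Ly6a, Cd34, Cd24a and Lpl the control of the USP10 table lay between the day 6 Huwe1 control and both treated columns, so every fold change at day 6 depends on which control is used. The tables were scaled separately, and levels set side by side across them are descriptions.

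**Figure D1:**
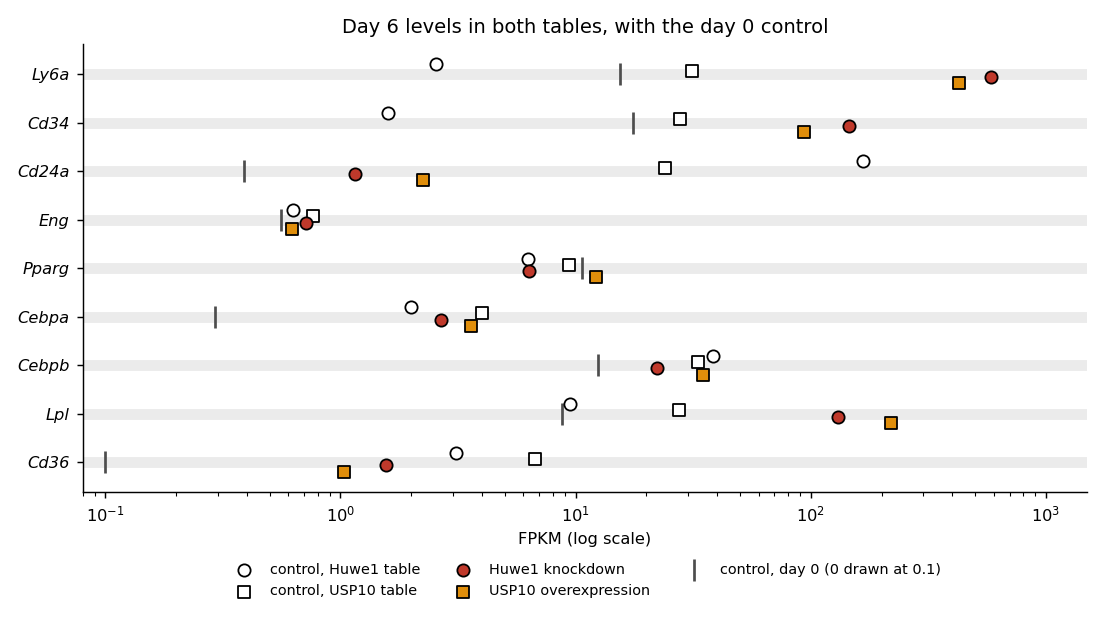
FPKM on a log axis for 9 of the genes (Thy1, at or near 0, is not drawn), with open symbols for the day 6 controls of the Huwe1 table (circle) and the USP10 table (square), filled symbols for Huwe1 knockdown (circle) and USP10 overexpression (square), and a tick for the day 0 control. For Ly6a the controls stand at 2.54 and 31.3 FPKM and the treated columns at 584 and 429 FPKM, while the 4 symbols of Eng all lie under 1 FPKM.

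The core promoters of these genes differ in whether they hold a TATA box, the element bound by TBP, the protein whose level the study followed. RefSeq promoter windows of GRCm38.p6, from 250 bases before to 50 bases after an annotated start, were found for Cd34, Cd36, Cebpa, Cebpb, Eng and Pparg, 8 windows for 6 of the 10 genes. The 150 bases before the start are shown for a pair of genes that changed in these data, Cd34 and Cd36, and for a pair that stayed within 2-fold, Cebpa and Pparg, in lower case with any match to TATAAA on either strand in capitals. They lie at chr1:194938671-194938820 on the plus strand for Cd34, at chr5:17835897-17836046 on the minus strand for Cd36, where the annotated start falls inside the gene's listed locus, at chr7:35119143-35119292 on the plus strand for Cebpa, and at chr6:115362199-115362348 on the plus strand for 1 of 3 windows of Pparg.
Cd34: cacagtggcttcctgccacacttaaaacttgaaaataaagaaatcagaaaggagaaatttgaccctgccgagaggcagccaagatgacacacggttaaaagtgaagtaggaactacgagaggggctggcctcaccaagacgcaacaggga
Cd36: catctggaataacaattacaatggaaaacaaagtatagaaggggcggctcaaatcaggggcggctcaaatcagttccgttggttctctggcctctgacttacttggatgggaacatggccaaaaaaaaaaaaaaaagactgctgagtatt
Cebpa: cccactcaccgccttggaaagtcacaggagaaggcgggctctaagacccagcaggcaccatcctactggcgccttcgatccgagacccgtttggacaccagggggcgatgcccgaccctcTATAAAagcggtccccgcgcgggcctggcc
Pparg: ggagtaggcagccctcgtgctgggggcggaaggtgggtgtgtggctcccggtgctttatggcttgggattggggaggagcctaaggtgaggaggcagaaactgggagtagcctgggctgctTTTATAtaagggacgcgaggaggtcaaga

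TATAAA began 30 bases before the start of Cebpa and, on the opposite strand, 29 bases before this start of Pparg, and it was present in 13.6% of all 32851 RefSeq windows. It was also found 22 bases after the start of Cebpb. It was not in the windows of Cd34, Cd36 and Eng, nor in the other Pparg windows. The E-box CAGCTG, found in 16.3% of windows, and TTCNNTTTC, a core of the interferon-stimulated response element found in 8.56%, were in none of the 8 windows, both strands being searched. TTGCNNNAA, a pattern of C/EBP sites found in 9.56% of windows, was in the third Pparg window, 18 bases after its start. A match describes the letters and shows no binding.

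Ly6a encodes a glycosylphosphatidylinositol-anchored protein of the Ly6 family, and it lies on chromosome 15 from 74994877 to 74998031. It had 15.5 FPKM in day 0 control cells against 12.6 FPKM in day 0 knockdown cells. At day 6 it had 2.54 FPKM in the control against 584 FPKM after knockdown, a log2 ratio of 7.84 that ranked 74 from the highest of 11695 genes. In the USP10 table it had 31.3 FPKM in the control against 429 FPKM in the overexpressing line (log2 ratio 3.78). Both treated day 6 columns were thus far above every control, including that of day 0. In myotubes the order was turned, with 13.9 FPKM in the control against 4.28 FPKM after knockdown, a log2 ratio of -1.69. Against the control of the other day 6 table, with centring, the day 6 knockdown had a log2 ratio of 4.17 and the USP10 line one of 7.40, so the direction held with either control and the size did not.

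Over the 8 columns, Ly6a was highest in the day 6 knockdown and the USP10 line, which were within 2-fold of each other, and next in the control of the USP10 table. The controls of day 0 and day 8 and the day 0 knockdown followed, from 15.5 to 12.6 FPKM and also within 2-fold. The knockdown myotubes and the day 6 Huwe1 control were lowest.

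Cd34 encodes a sialomucin of haematopoietic, endothelial and mesenchymal progenitors, on chromosome 1 from 194938821 to 194976959. It had 17.5 FPKM in the control against 28.5 FPKM after knockdown at day 0, a log2 ratio of 0.70. It had 1.59 and 145 FPKM at day 6 (log2 ratio 6.50) and 27.8 and 93.2 FPKM in the USP10 table (log2 ratio 1.74). The day 6 Huwe1 control was itself 10.9-fold lower than the day 0 control. The 3.35-fold difference in the USP10 table was smaller than the 17.4-fold difference between the day 6 controls. In myotubes Cd34 had 7.22 FPKM in the control against 5.45 FPKM after knockdown, under 2-fold. Against the control of the other day 6 table, the day 6 knockdown had a centred log2 ratio of 2.32 and the USP10 line one of 5.88.

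Cd24a, which encodes a small, heavily glycosylated surface protein of immature and epithelial cells, moved opposite to Ly6a and Cd34. It lies on chromosome 10 from 43579169 to 43584265. It had 0.389 FPKM in day 0 control cells against 0.243 FPKM in day 0 knockdown cells. In the day 6 control it stood at 167 FPKM and in the knockdown at 1.16 FPKM, a log2 ratio of -7.17 that ranked 33 from the lowest. In the USP10 table it had 24.0 FPKM in the control against 2.24 FPKM in the overexpressing line (log2 ratio -3.41). The high columns were therefore the differentiated controls, and the treated day 6 columns were nearer to the day 0 level. Myotubes kept it, with 26.5 FPKM in the control against 19.9 FPKM after knockdown. With the controls exchanged and centred, the log2 ratio was -4.42 for the day 6 knockdown and -6.21 for the USP10 line.

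Thy1 and Eng, a pair of markers often used to define mesenchymal stromal cells, were hardly expressed. Thy1 was listed at 0 in 6 of the 8 columns and reached 0.0331 FPKM in control myotubes and 0.0764 FPKM in the control of the USP10 table. Eng, a co-receptor for ligands of the TGF beta family, ranged from 0.557 FPKM in the day 0 control to 0.836 FPKM in the day 0 knockdown. Its 8 values were within 2-fold of each other. The high Ly6a and Cd34 levels at day 6 were thus measured without THY1 or endoglin transcripts at 1 FPKM or more.

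**Figure D2:**
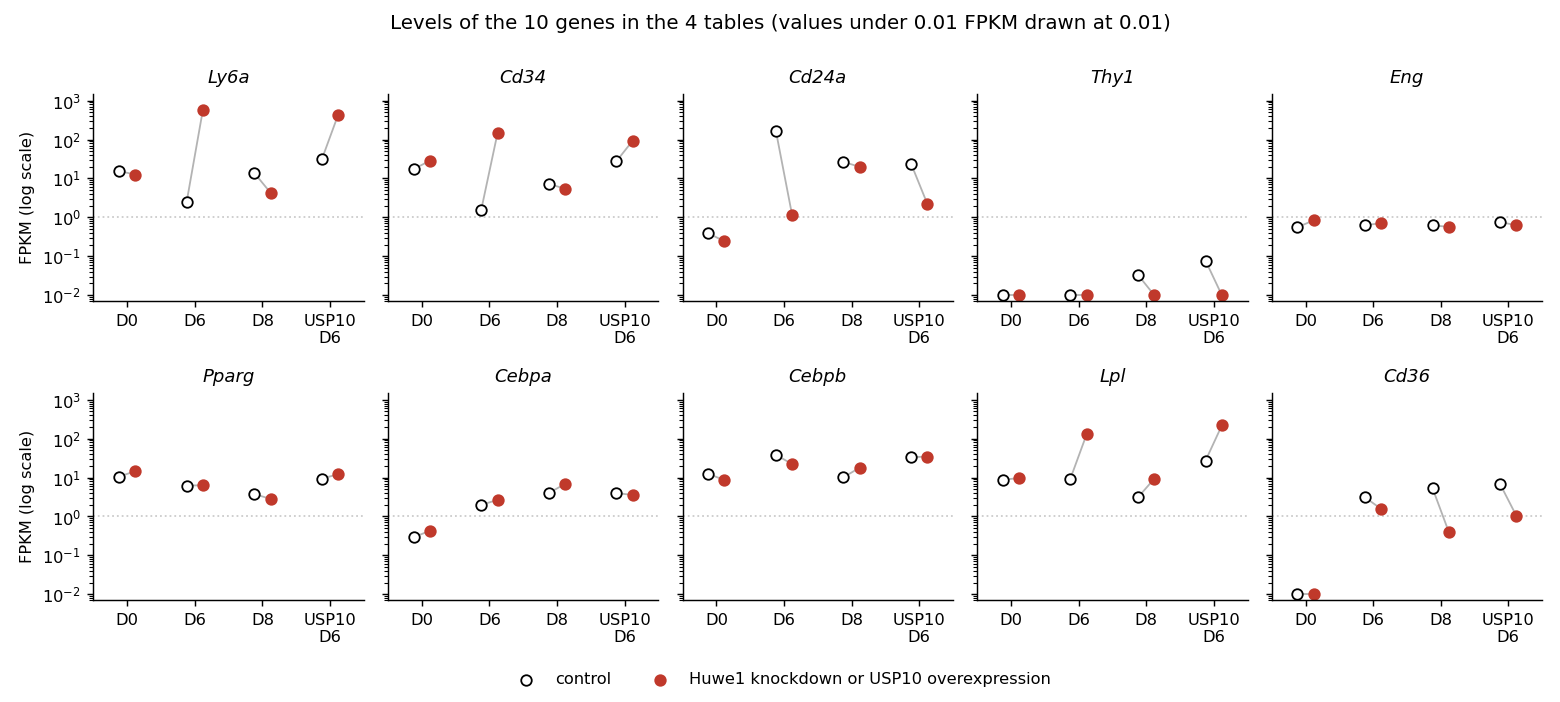
FPKM of each of the 10 genes on a log axis, with an open circle for the control and a filled circle for the treated column of the same table (Huwe1 knockdown at D0, D6 and D8, USP10 overexpression at D6), a dotted line at 1 FPKM, and values under 0.01 FPKM drawn at 0.01. Ly6a, Cd34 and Lpl stand higher and Cd24a lower in the treated column of both day 6 comparisons, and the points of Pparg stay between 2.83 and 14.6 FPKM.

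The adipogenic transcription factors moved little. Pparg, the nuclear receptor required for fat cell formation, had 10.6 FPKM in the control against 14.6 FPKM after knockdown at day 0, and 6.24 and 6.33 FPKM at day 6. It had 3.77 and 2.83 FPKM at day 8, and 9.41 and 12.2 FPKM in the USP10 table. It was thus already present in growing myoblasts, and its 4 log2 ratios ranged from -0.41 to 0.46. With the controls of the day 6 tables exchanged and centred, its log2 ratio was -0.63 for the knockdown and 0.97 for the USP10 line. It lies on chromosome 6 from 115361221 to 115490401.

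Cebpa, on chromosome 7 from 35119293 to 35121931, encodes the C/EBP factor of late adipogenesis and had low levels throughout. It had 0.292 FPKM in the control against 0.430 FPKM after knockdown at day 0, then 1.99 and 2.66 FPKM at day 6 and 4.02 and 6.85 FPKM at day 8. In the USP10 table it had 3.98 and 3.58 FPKM. Every column from differentiated cultures was above both day 0 columns, and no treated column was 2-fold from its control. The difference between the day 6 controls, 2.00-fold, was larger than any of these treated-to-control differences. With the controls exchanged and centred, the log2 ratio changed sign, to -0.64 for the day 6 knockdown and 0.85 for the USP10 line.

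Cebpb, on chromosome 2 from 167688915 to 167690418, encodes the C/EBP factor of early adipogenesis. Its control and knockdown levels were 12.4 and 8.68 FPKM at day 0, and 38.5 and 22.2 FPKM at day 6. In myotubes it was higher in the knockdown, with 10.1 and 18.0 FPKM, and in the USP10 table it was level, with 33.3 and 34.7 FPKM. Its log2 ratios were -0.51, -0.79, 0.83 and 0.06 in that order, all within 2-fold. With the controls exchanged it was -0.64 for the day 6 knockdown and -0.14 for the USP10 line.

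Lpl encodes lipoprotein lipase, which releases fatty acids from circulating triglycerides, and it was the one gene of the 10 that was at least 2-fold higher in each comparison of differentiated cultures. It lies on chromosome 8 from 68880555 to 68906932. At day 0 the control had 8.79 FPKM and the knockdown 9.69 FPKM. At day 6 the levels were 9.44 and 130 FPKM (log2 ratio 3.78), and in the USP10 table they were 27.4 and 218 FPKM (log2 ratio 2.99). The USP10 line thus held the highest Lpl level, 1.68-fold above the day 6 knockdown. In myotubes Lpl had 3.11 FPKM in the control against 9.32 FPKM after knockdown (log2 ratio 1.58), a knockdown level like those of both day 0 columns. Against the control of the other day 6 table the centred log2 ratio was 2.19 for the day 6 knockdown and 4.54 for the USP10 line.

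Cd36, which encodes a scavenger receptor that takes up long-chain fatty acids, differed from Lpl in direction. It lies on chromosome 5 from 17781690 to 17888959. It was listed at 0 in day 0 control cells, against 0.00606 FPKM after knockdown, so no fold is given there. In the differentiated controls it had 3.11 FPKM at day 6, 5.27 FPKM at day 8 and 6.71 FPKM in the USP10 table. The treated columns beside them had 1.55, 0.399 and 1.04 FPKM, with log2 ratios of -0.99, -3.69 and -2.69. The day 6 difference was 1.99-fold and fell just short of 2-fold, and it was 2-fold or more, with a log2 ratio of -2.16, against the control of the other day 6 table. For the USP10 line the exchange gave -1.57.

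**Figure D3:**
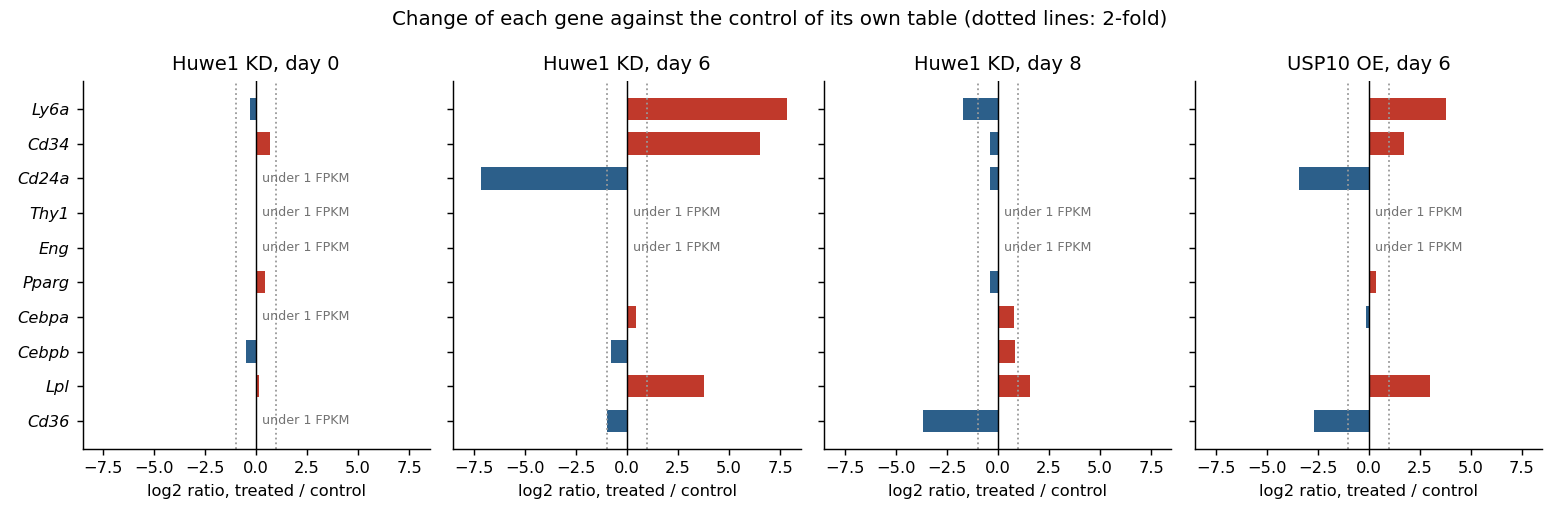
Log2 ratio of treated to control FPKM for each gene in the 4 comparisons, with bars to the right for genes higher in the treated column, bars to the left for genes lower, dotted lines at 2-fold, and genes under 1 FPKM in both columns marked without a bar. The longest bars are those of Ly6a (7.84), Cd24a (-7.17) and Cd34 (6.50) at day 6 of Huwe1 knockdown, and no bar reaches 2-fold at day 0.

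Counted together, 0 of 5 kept genes were at least 2-fold changed at day 0, where 1.90% of all 10874 genes were higher and 1.69% lower. At day 6 of the knockdown 3 of 8 were higher (Ly6a, Cd34 and Lpl) and 1 was lower (Cd24a), where 17.6% of all genes were higher and 13.4% lower. In knockdown myotubes 1 of 8 was higher (Lpl) and 2 were lower (Ly6a and Cd36), beside 7.89% and 10.0% of all genes. With USP10 overexpression 3 of 8 were higher (Ly6a, Cd34 and Lpl) and 2 lower (Cd24a and Cd36), beside 9.70% and 10.0%. The median log2 ratio of the kept genes was 0.14, 0.22, -0.41 and 0.21, and that of all genes 0.00, -0.01, 0.00 and 0.05. Because the genes were chosen with these values known, the counts are not read against those shares.

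The treated day 6 columns, which came from different interventions and tables, were set side by side for these genes. Usp10 itself was at like levels in them, 35.4 and 38.3 FPKM. Going from the knockdown to the USP10 line, Ly6a was 1.36-fold and Cd34 1.55-fold lower, while Cd24a was 1.93-fold, Pparg 1.92-fold and Lpl 1.68-fold higher, and none of the 8 genes kept at day 6 was 2-fold apart. Across all genes, after centring, 9.59% were 2-fold apart between those columns, against 19.9% between the controls. With so few genes, having none apart is near that share and is not read as a trait of these genes. Their folds were not centred, and Cd24a (log2 ratio 0.95) and Pparg (0.94) lay close to the 2-fold line, the median gene being at -0.05. Depth was unlike in these pairs, since the control of the USP10 table was estimated at 7.78e+06 fragments and the USP10 line at 2.76e+07. The knockdown column pooled 2 libraries. The part of depth in the difference between these shares was not tested. The day 6 and day 8 knockdown columns, by contrast, stood far apart, with Ly6a at 584 and 4.28 FPKM, Cd34 at 145 and 5.45 FPKM, Lpl at 130 and 9.32 FPKM, and Cd24a at 1.16 and 19.9 FPKM. The labels give other hairpins for the day 8 cultures than for day 6, although the methods list a single pair, and the day 8 cultures were infected after differentiation had begun, so time and procedure cannot be told apart.

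Other genes of the same families and pathways were described from 13 hand-written lists. The shares of all genes at least 2-fold higher and lower belong beside every list count. They were 1.90% and 1.69% at day 0, 17.6% and 13.4% at day 6, 7.89% and 10.0% at day 8, and 9.70% and 10.0% in the USP10 table. Among 15 other mesenchymal surface genes, 9 were kept at day 6, of which 5 were at least 2-fold higher and 0 lower, with a median log2 ratio of 1.30. Of all genes 17.6% were higher and 13.4% lower there. The list counts lean on the filter. Nt5e and Alcam were under 1 FPKM in the control and were kept only through the knockdown column. Mcam, with 0.589 FPKM in the control against 0.236 FPKM after knockdown, was not kept and is not counted as lower. Cd44, the hyaluronan receptor, had 28.6 FPKM in the control against 142 FPKM after knockdown, and the tetraspanin gene Cd9 had 56.5 and 199 FPKM. With USP10 overexpression 1 of 9 was higher, Cd44, with 32.9 and 119 FPKM. Cd9 had 150 and 128 FPKM there. Against the control of the other day 6 table, 1 was higher and 2 were lower in the day 6 knockdown, and 5 were higher and 0 lower in the USP10 line. With that exchange 12.1% of all genes were higher and 10.6% lower in the knockdown, and 17.6% and 15.3% in the USP10 line. In myotubes 2 of 10 were higher and 1 was lower, and at day 0 0 of 11 passed 2-fold in either direction.

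Most kept genes of fibro-adipogenic progenitors and fibroblasts were higher at day 6 of the knockdown, where 12 of 13 kept genes of 22 listed were at least 2-fold higher and 0 lower (median log2 ratio 2.89). Of all genes 17.6% were higher and 13.4% lower there. The count of the list leans on the filter. Lum, Osr1, Twist2 and Clec3b were under 1 FPKM in the control and were kept only through the knockdown column. Cxcl14, with 0.994 FPKM in the control against 0.0275 FPKM after knockdown, fell just short of being kept and is not counted as lower. Their summed level was 232 FPKM in the control against 4312 FPKM after knockdown, most of it from 1 gene. Dcn, which encodes the collagen-binding proteoglycan decorin, had 7.94 FPKM in the control against 2987 FPKM after knockdown. Clec3b had 0.386 and 14.7 FPKM, the PDGF receptor gene Pdgfrb 6.62 and 29.2 FPKM, and the actin-severing protein gene Gsn 83.2 and 349 FPKM. Pdgfra, the defining receptor of fibro-adipogenic progenitors, had 1.02 and 5.32 FPKM. The list depended on the control, since 6 genes were higher and 1 lower against the control of the other day 6 table, beside 12.1% and 10.6% of all genes.

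With USP10 overexpression 4 of 14 kept genes of that list were higher and 2 lower, with a median of 0.40. Dcn again stood out with 50.3 FPKM in the control against 3037 FPKM in the overexpressing line, while Pdgfra had 2.96 and 3.98 FPKM and Pdgfrb 52.1 and 33.5 FPKM. With the control of the day 6 Huwe1 table in its place, 12 were higher and 0 lower, beside 17.6% and 15.3% of all genes. In myotubes 4 of 16 were higher and 2 lower, beside 7.89% and 10.0% of all genes. Dcn had 4.19 and 8.75 FPKM there and Pdgfra 1.95 and 7.74 FPKM. Ly6a was lower in those same myotubes, where Pdgfra was higher. Tcf21, a fibroblast transcription factor, was listed at 0 in all 8 columns.

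Among the other adipogenic regulators, 5 of 16 kept genes were higher and 3 lower at day 6, with a median log2 ratio of 0.36, beside 17.6% and 13.4% of all genes. The Krüppel-like factor genes went in different directions, Klf4 with 6.90 FPKM in the control and 117 FPKM after knockdown, Klf2 with 0.736 and 17.9 FPKM and Klf5 with 109 and 26.5 FPKM. Ebf1, an activator of Pparg, had 0.462 and 8.56 FPKM. Klf2 and Ebf1 were under 1 FPKM in the control and were kept only through the knockdown column, so their direction was largely set by the filter. The USP10 table showed the same directions for these 4 genes, with Klf4 at 20.5 and 128 FPKM, Klf2 at 0.870 and 6.73 FPKM, Klf5 at 100.4 and 49.5 FPKM and Ebf1 at 6.64 and 13.5 FPKM. Of its 16 kept genes 4 were higher and 3 lower, and Klf2 and Wnt10b were kept only through the overexpressing line. With the controls exchanged, 3 genes were higher and 3 lower in the knockdown, and 7 were higher and 3 lower in the USP10 line. Ebf1 at 8.56 FPKM in the knockdown was then under 2-fold from the 6.64 FPKM of the other control. In myotubes 5 of 18 were higher and 6 lower. There Cebpd, which acts beside Cebpb early in adipogenesis, had 2.88 FPKM in the control against 13.5 FPKM after knockdown, and Ddit3, a C/EBP inhibitor induced by stress, had 47.6 and 151 FPKM, whereas Klf4 had 11.2 and 3.85 FPKM.

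Genes of the mature adipocyte gave no common direction. At day 6, 3 of 13 kept genes of 24 listed were higher and 2 lower, with a median log2 ratio of -0.22. Of all genes 17.6% were higher and 13.4% lower there, so these counts are not read as a trait of adipocyte genes. Plin2, which coats lipid droplets in many cell types, had 25.9 FPKM in the control against 102 FPKM after knockdown at day 6, and 38.3 and 115 FPKM in the USP10 table. Slc2a4, the insulin-responsive glucose transporter of muscle and fat, had 5.62 and 0.395 FPKM at day 6. The fat cell genes Adipoq, Lep and Cfd were listed at 0 in all 8 columns, and Plin1 was at 0 in both columns at day 6, at day 8 and in the USP10 table. Fabp4, the fatty acid binding protein gene of adipocytes, was low but higher in each treated column, with 0.287 and 1.33 FPKM at day 0, 0.348 and 4.68 FPKM at day 6, 0.116 and 0.454 FPKM at day 8, and 0.535 and 3.84 FPKM in the USP10 table. Plin4, a lipid droplet protein gene, had 0.285 and 2.69 FPKM at day 6, and 1.28 and 1.70 FPKM in the USP10 table. At day 6 Fabp4 and Plin4 were kept only through the knockdown column, so their direction in that count was largely set by the filter. Fabp4 was likewise kept only through the treated column at day 0 and in the USP10 table, and Plin4 at day 8. With USP10 overexpression 2 of 12 genes were higher and 2 lower, and in myotubes 1 of 12 was higher and 3 were lower.

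Partners of lipoprotein lipase and of fatty acid uptake also split. At day 6, 5 of 13 kept genes were higher and 4 lower, beside 17.6% and 13.4% of all genes. Angptl4, a secreted inhibitor of lipoprotein lipase, was higher wherever Lpl was, with 5.75 FPKM in the control against 26.2 FPKM after knockdown at day 6, 7.58 and 35.6 FPKM at day 8, and 19.1 and 71.0 FPKM in the USP10 table. Cav1, the caveolin of the fatty acid uptake route, had 11.3 and 82.5 FPKM at day 6 but 95.8 and 36.5 FPKM in myotubes. Fabp3, the fatty acid binding protein gene of muscle and heart, and Vldlr, a lipoprotein receptor gene, were lower at day 6, Fabp3 with 225 and 20.2 FPKM at day 6 and 102 and 14.5 FPKM in the USP10 table, and Vldlr with 57.9 and 4.75 FPKM and with 21.7 and 5.81 FPKM. Gpihbp1, which carries lipoprotein lipase across the capillary wall, was listed at 0 in all columns. With USP10 overexpression 2 of 14 were higher and 3 lower, and in myotubes 3 of 14 were higher and 5 lower. Against the control of the other day 6 table, 0 genes were higher and 5 lower at day 6 of the knockdown, and 8 were higher and 4 lower in the USP10 line.

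Around Eng, the receptors and targets of TGF beta and BMP signalling were expressed although Eng itself stayed under 1 FPKM. Tgfbr3, a co-receptor related to endoglin, was at least 2-fold higher in all 4 comparisons, with 2.90 FPKM in the control against 6.49 FPKM after knockdown at day 0, 1.86 and 18.0 FPKM at day 6, 2.76 and 7.92 FPKM at day 8, and 5.08 and 13.4 FPKM in the USP10 table. With a pseudocount of 1 FPKM 0 genes of this list, Tgfbr3 included, passed 2-fold at day 0. Tgfbr2 had 32.9 and 137 FPKM at day 6. The BMP effector gene Smad1 had 25.9 and 7.21 FPKM and its target Id2 10.6 and 1.65 FPKM at day 6. In all, 2 of 13 kept genes were higher and 5 lower at day 6, 3 and 0 of 13 at day 8, and 1 and 2 of 14 in the USP10 table. The shares of all genes, in that order, were 17.6% and 13.4%, 7.89% and 10.0%, and 9.70% and 10.0%.

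Most kept relatives of Ly6a were higher where it was. Of 11 kept Ly6 family genes, 9 were at least 2-fold higher and 1 lower at day 6 (median log2 ratio 3.88), and 6 of 8 were higher and 0 lower in the USP10 table (median 3.08). Of all genes 17.6% were higher and 13.4% lower at day 6, and 9.70% and 10.0% in the USP10 table. The Ly6 counts lean on the filter. Ly6c1, Ly6c2, Ly6f, Ly6i, Psca, Slurp1 and Lypd1 were under 1 FPKM in the day 6 control and were kept only through the knockdown column. In the USP10 table Ly6c2, Psca and Slurp1 were kept only through the overexpressing line. Ly6c1 had 0.189 FPKM in the control against 103 FPKM after knockdown at day 6, and 1.45 and 52.7 FPKM in the USP10 table. Ly6e had 14.7 and 218 FPKM at day 6, 35.5 and 92.9 FPKM in myotubes, and 57.9 and 226 FPKM in the USP10 table. Ly6c1 and Ly6c2 are near copies of each other and close to Ly6a, so reads could have been divided among them and their levels are uncertain. In myotubes 3 of 7 were higher and 3 lower, beside 7.89% and 10.0% of all genes, with Ly6e and Ly6a in opposite directions.

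For Cd34, its relatives Podxl and Podxl2 did not follow it together. Podxl2 had 6.41 FPKM in the control against 1.01 FPKM after knockdown at day 6, and 9.44 and 0.787 FPKM in the USP10 table, where Podxl had 2.39 and 10.99 FPKM. Of the kept genes of this list of 5, 0 of 2 were higher and 1 lower at day 6, 0 of 3 passed 2-fold in myotubes, and 1 of 3 was higher and 1 lower in the USP10 table.

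Markers of other cells that carry these surface proteins, and interferon-stimulated genes, since Ly6a is itself inducible by interferon, were measured in the same columns. The 14 interferon-stimulated genes summed to 155 FPKM in the control against 1387 FPKM after knockdown at day 6, where 12 of 13 kept genes were higher and 0 lower. Most of these sums was B2m, the light chain gene of MHC class I, with 136 and 1242 FPKM at day 6 and 402 and 1195 FPKM in the USP10 table. They summed to 427 and 1274 FPKM in the USP10 table, where 8 of 10 were higher, and to 163 and 288 FPKM in myotubes, where 2 of 6 were higher. At day 0 they summed to 263 and 297 FPKM, and 0 of 6 passed 2-fold. Of all genes 17.6% were higher at day 6, 9.70% in the USP10 table, 7.89% in myotubes and 1.90% at day 0. Most of the interferon-stimulated genes counted as higher at day 6, Ifit1, Ifit3 and Irf7 among them, were under 1 FPKM in the control. They were kept only through the knockdown column, so that count leans on the filter. Ifit1, Ifit3, Irf7 and Gbp2 were likewise kept only through the treated column in the USP10 table. The part of the interferon-stimulated genes in the Ly6a result was not tested.

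The 11 endothelial markers summed to 0.299 FPKM in the control against 8.24 FPKM after knockdown at day 6, and to 1.00 and 7.49 FPKM in the USP10 table. Most of both treated sums was Cdh5, with 0.0241 and 6.83 FPKM and with 0.278 and 6.81 FPKM. Cdh5 also had 13.5 FPKM in the day 0 control, in myoblasts. Tie1, Emcn, Erg and Cldn5 were at 0 in all these columns, and Pecam1 was at most 0.346 FPKM. The 12 haematopoietic markers summed to between 0.842 and 5.08 FPKM over the 8 columns, and Ptprc was at most 0.0102 FPKM in any of them. Both endothelial genes kept at day 6 were at least 2-fold higher in the knockdown, Cdh5 and the angiopoietin receptor gene Tek, with 0.0616 and 1.08 FPKM. Each was under 1 FPKM in the control and was kept only through the knockdown column, so their direction was largely set by the filter. Tek had 0.158 and 0.443 FPKM in the USP10 table. The macrophage marker Cd68 was the 1 kept haematopoietic gene, with 1.48 and 1.35 FPKM at day 6, 0.946 and 2.34 FPKM in myotubes, and 4.65 and 2.09 FPKM in the USP10 table. Of the 12 muscle markers, 10 were lower and 1 was higher at day 6 (median log2 ratio -2.69), 8 and 1 in the USP10 table (-1.87), and 9 and 0 in myotubes (-1.67). Bone, cartilage and tendon markers had 3 of 6 kept genes higher at day 6, 1 higher and 1 lower of 5 in the USP10 table, and 0 of 5 changed in myotubes. Mkx, 1 of those higher at day 6, was under 1 FPKM in the control and was kept only through the knockdown column. The part of any of these lists in the levels of the 10 genes was not tested.

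At day 0 the lists hardly moved. Of the kept genes, 1 of 10 fibro-adipogenic and fibroblast genes, 1 of 9 adipocyte genes, 1 of 13 endoglin partners and 1 of 3 genes of the CD34 list were at least 2-fold higher. Lower by that much were 1 of 15 adipogenic regulators, 1 of 13 partners of lipoprotein lipase and 1 of 4 muscle markers, Myod1, with 21.7 and 9.30 FPKM. None of the 5 Ly6 family genes and 4 bone, cartilage and tendon markers passed 2-fold. The endothelial and haematopoietic lists had 1 kept gene each, under 2-fold.

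**Figure D4:**
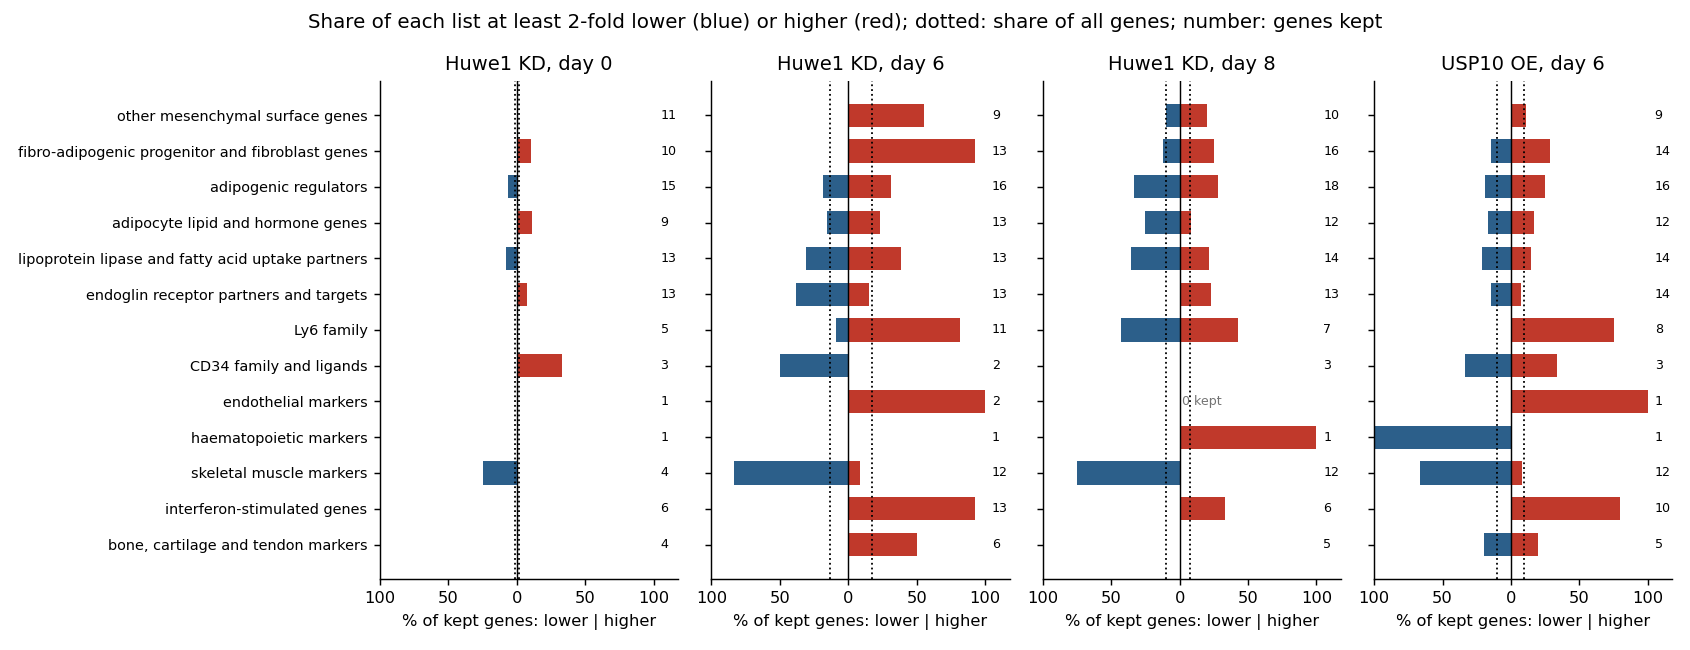
Share of the kept genes of each list that were at least 2-fold lower (left) or higher (right) in each comparison, with dotted lines at the share of all genes (17.6% higher and 13.4% lower at day 6 of Huwe1 knockdown) and the number of kept genes at the right edge. The fibro-adipogenic, Ly6 and interferon lists extend to the right at day 6, with 12 of 13, 9 of 11 and 12 of 13 genes, and the muscle list extends to the left in each comparison of differentiated cultures. Most of the higher genes of the Ly6 and interferon lists, and some of the fibro-adipogenic list, were under 1 FPKM in the control. They were kept only through the knockdown column.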

How the data were processed

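Directional mRNA-seq libraries from C2C12 cells were mapped by the authors with Tophat, and expression was estimated with Cuffdiff. The submitters' processing notes also name Bowtie2 and the build mm10. The deposited values are FPKM, 1 per condition, scaled by the authors to transcript length and library size within each table. All 8 FPKM columns were used. The deposited fold changes, test scores, p-values and q-values of the authors' own comparisons were not used.

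Log2 ratios with a pseudocount of 0.01 FPKM, counts of genes at least 2-fold apart and medians were computed over genes with at least 1 FPKM in 1 column, in Python 3.11.15 with numpy 2.4.6, pandas 2.3.3 and matplotlib 3.10.9. With 1 value per condition no test was run. Depth was estimated from the lowest FPKM steps of genes with 1 transcript of at least 1500 bases, for columns holding a single library, and covers counting error only. Listed loci were checked against GENCODE M21, which overlapped all 10. Scripts were tested on simulated data.

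The genes and the 13 lists were chosen with earlier results of these data known. From a list, in a comparison, up to 3 genes per direction with at least 5 FPKM in 1 column were named. Also named were defining markers, genes at 0, Huwe1, Usp10, expressed Ly6a relatives and genes that show the effect of the filter. Alternatives were other pseudocounts, filters, thresholds, centring, Cuffdiff status and exchange of the day 6 controls.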

Additional observations from a re-analysis of the deposited data

Results flagged for a closer look

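The effect of Huwe1 knockdown on Ly6a went in opposite directions in the day 6 and the day 8 cultures. Ly6a had 2.54 FPKM in the control against 584 FPKM after knockdown at day 6 (log2 ratio 7.84), and 13.9 and 4.28 FPKM at day 8 (log2 ratio -1.69), so that the log2 ratios differed by 9.53. This difference was not tested, since each condition has 1 value. The controls moved as well, Ly6a being 5.43-fold higher in the control myotubes than in the day 6 Huwe1 control, but most of the difference lay between the knockdown columns, of which the day 8 one was 136-fold lower. The time of infection and, by the labels, the hairpins and the control differed between these experiments and cannot be told apart from the day.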

How the results depend on the processing

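Of 214 recomputed log2 ratios of the 10 genes, 197 moved by less than 0.63, the robust SD between the day 6 controls. The filters and the Cuffdiff status only change which genes are kept, so ratios recomputed under them could not move. The 197 is therefore no measure of stability. Most of the ratios that moved by 0.63 or more did so with the day 6 controls exchanged. No ratio of 2-fold or more changed sign. A sign changed in 4 smaller ratios, all with the controls of the day 6 tables exchanged, namely Pparg (-0.63) and Cebpa (-0.64) in the knockdown and Cebpa (0.85) and Cebpb (-0.14) in the USP10 line. The count of genes at least 2-fold lower at day 6 became 2 in place of 1 with the control of the other day 6 table, through Cd36, the 1 ratio that crossed the 2-fold line. At day 8 the count of lower genes was 1 in place of 2 when 1 FPKM was required in both columns, which removed Cd36, and the count of higher genes was 0 in place of 1 at a 3-fold threshold, Lpl having changed 2.99-fold. With a pseudocount of 1 FPKM the log2 ratios of the low genes shrank, Cd34 at day 6 to 5.82, Cd24a at day 6 to -6.29, and Cd36 to -2.16 at day 8 and -1.92 in the USP10 table. Of 884 recomputed list counts, 171 differed by more than 1.5 times. No paired analysis was possible because the tables hold no replicate values, the 2 knockdown libraries being pooled in 1 column, and for the same reason leaving out a library was not run. The shallow control of the USP10 table limits low genes most, since 1 FPKM stood there for about 7.78 fragments per kilobase.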

Other observations

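The genes whose 4 log2 ratios were nearest to those of Ly6a, Cd34 and Cd24a were looked up among 8370 genes reaching 10 FPKM in some column, by Euclidean distance with a pseudocount of 1 FPKM. For Ly6a these were Ly6c1 (distance 1.23), its near relative, Pla1a (1.88) and Efhd1 (1.90). For Cd34 they were the cyclin D1 gene Ccnd1 (0.96), Pcolce2 (1.15) and Syt13 (1.21). Those nearest to Cd24a were the growth factor gene Igf2 (1.47), the myosin heavy chain gene Myh2 (1.47) and Ankrd2 (1.50), each lower in both day 6 comparisons. The distances rest on 4 comparisons, of which the day 6 ones differ in their controls, and describe these columns.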
